A study of Gallus gallus with 16 samples.

Results

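Cytosolic ribosomal protein genes, named RPS for the small subunit and RPL for the large one, encode the proteins that fold onto ribosomal RNA to build the ribosome, and every cell uses nearly all of them. The genes examined here were those whose symbol has the RPS or RPL form followed by a number, with the ribosomal S6 kinases left out. The rule found 67 such genes in both RPKM tables, of 15979 genes listed in either table. Of these, 42 were named for the large subunit, which joins amino acids, and 25 for the small subunit, which reads the mRNA. The transcripts of this family are known to share a pyrimidine tract at the start of the mRNA, through which growth signals set how much of each is translated. Feather epithelium is a fast growing tissue that fills its cells with keratins, and the pulp is the vascular mesenchyme inside the growing feather.

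The study compared growing feathers of White leghorn chickens with narrow and with wide vanes. The narrow groups were the lateral side of primary remiges (flight feathers) and dorsal plumes, and the wide groups were the medial side of primary remiges and breast plumes. Epithelium and pulp (mesenchyme in the labels) were separated, which gave lateral epithelium, medial epithelium, lateral pulp, medial pulp, dorsal epithelium, breast epithelium, dorsal pulp and breast pulp. There were 2 libraries for each of the 8 groups, 1 from each batch (I and II), 16 in all, and the labels name no treatment. A remige library pooled 3 follicles cut into a lateral and a medial piece, so that both sides came from pooled follicles cut in 2, and a plume library pooled 25 follicles. The ages of the birds were not given in the sources used here. Each library's RPKM was rescaled to a total of 1000000, giving TPM, a share of all transcripts. Where a group has a pair of values, that of batch I comes before that of batch II.

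Depth ran from 42.2 to 45.8 M alignments (M, 1000000 reads) in remige epithelium, 29.4 to 37.0 in remige pulp, 32.6 to 37.7 in plume epithelium and 23.4 to 26.1 in plume pulp. Keratinocyte and fibroblast markers followed the separated tissues. The 26 keratinocyte markers summed to 11585 to 12914 TPM in remige epithelium and 2042 to 2900 TPM in remige pulp, and to 11978 to 15104 TPM in plume epithelium and 1636 to 2736 TPM in plume pulp. The 22 fibroblast markers summed to 337 to 371 TPM in remige epithelium and 23276 to 26450 TPM in remige pulp, and to 236 to 472 TPM in plume epithelium and 31240 to 37099 TPM in plume pulp. No keratinocyte marker was at 0 in any pulp group. Endothelial and leukocyte marker sums were higher in pulp in both feather types. The sums of the 14 erythrocyte markers did not follow the tissues alike. They were 2458 to 3985 TPM in remige epithelium and 1539 to 2615 TPM in remige pulp. In plumes they were 808 to 916 TPM in epithelium and 1330 to 2203 TPM in pulp. In remiges the median log2 fold change of the 10 tested, epithelium over pulp, was -1.75.

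The remige libraries of batch II stood apart from those of batch I. HINTW, a gene of the W chromosome that hens carry and roosters lack, was at 1358 and 1346 TPM in lateral and medial epithelium of batch II and at 1179 and 1276 TPM in lateral and medial pulp of batch II. In batch I it was at 2.74 and 3.05 TPM in lateral and medial epithelium and listed at 0 in both pulp libraries. The 510 tested genes that the RefSeq annotation of GRCg7b places on Z had a median difference, batch II minus batch I, between -0.52 and -0.41 on the log2 scale in the 4 remige groups, against -0.05 to 0.07 for the 9949 tested genes placed elsewhere. In plumes the Z medians were -0.20 to -0.01 and those of the genes placed elsewhere -0.13 to 0.04, and HINTW was not analysed there. The study's text speaks of roosters. The 4 batch II remige libraries therefore go against that description, and the calls of the family between the remige tissues are also given for each batch.

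Ribosomal protein mRNA was abundant in every library. Between 44 and 50 of the 67 genes were among the 100 most abundant genes of a group, and their group medians ran from 2275 to 3691 TPM, where the median gene of the tables stood at 8.55 to 15.3 TPM. Together they held 24.0% and 22.3% of all TPM in lateral epithelium, 23.7% and 23.5% in medial epithelium, 18.5% and 16.1% in lateral pulp and 17.8% and 17.3% in medial pulp. In plumes they held 19.5% and 21.0% in dorsal epithelium, 18.8% and 18.5% in breast epithelium, 15.8% and 14.8% in dorsal pulp and 14.6% and 16.2% in breast pulp. Every epithelium library lay above every pulp library of the same feather type, while regions overlapped in both pulps and in remige epithelium, and dorsal epithelium lay above breast epithelium. The mean share was 23.4% ± 0.72 in remige epithelium and 17.4% ± 1.0 in remige pulp (SD, n = 4 each), and 19.5% ± 1.10 in plume epithelium and 15.3% ± 0.77 in plume pulp (SD, n = 4 each). The 4 remige libraries of a tissue are a lateral and a medial piece of the pooled follicles of each batch, so they are not independent samples. TPM is a share of a fixed total, so the family's share also depends on the levels of all other transcripts. In these bulk samples more ribosomal protein RNA per cell, less RNA of other genes and a larger share of cells rich in ribosomal protein RNA cannot be told apart.

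**Figure D1:**
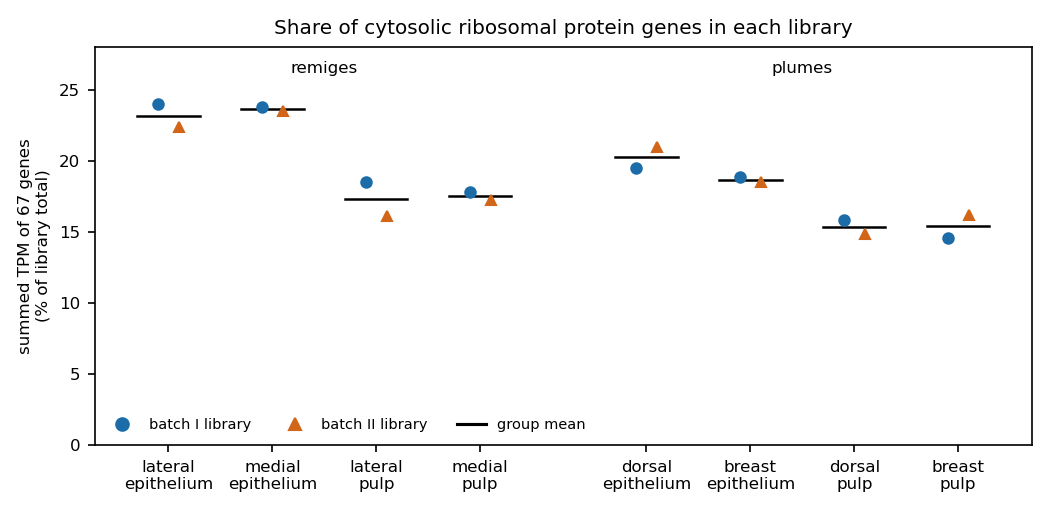
Summed TPM of the 67 ribosomal protein genes as a percent of each library's total (y axis), by group (x axis). Points are libraries of batch I and batch II and lines are means of 2 libraries. Epithelium libraries sat between 18.5% and 24.0% and pulp libraries between 14.6% and 18.5%, with no overlap within a feather type.

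The order of the genes by level was much alike everywhere. Across the 65 genes with at least 25 TPM in every group, mean log2(TPM + 1) correlated at r = 0.99 between epithelium and pulp within remiges and within plumes, at 0.95 between remige and plume epithelium and at 0.97 between remige and plume pulp. These are correlations across genes, which are not independent replicates, and gene length and base composition are shared by both axes. Among the 5 highest by mean over the 16 libraries were RPS24 with 6004 TPM, RPS3A with 5730, RPLP1 with 5710 and RPS6 with 5210. RPS24 belongs to the small subunit and is mutated in some human patients with Diamond-Blackfan anaemia, and RPS6 is the target of the S6 kinases. At the other end, RPS16 averaged 605 TPM and RPS28 569, both of the small subunit.

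The remaining low genes were a paralogue and a pair near 0. RPL7L1, a paralogue of RPL7 whose yeast relative acts in ribosome assembly, ran from 184 to 289 TPM. RPL17, a core protein of the large subunit, was between 3.36e-08 and 2.70 TPM in all 16 libraries, where RPS28, the next lowest core gene by mean, had at least 423 TPM. RPL3L, the striated muscle paralogue of RPL3, was between 0 and 0.68 TPM. How the authors' quantification assigned reads that map to several places is not stated, so the RPL17 values show only how this column was filled, and RPL22, RPL7 and RPL3 may share reads with their paralogues. RPL3L passed the filter on low values in neither table and RPL17 in remiges only, which left 66 genes tested in remiges and 65 in plumes.

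The calls of this family lay mainly between epithelium and pulp. In remiges 57 of 66 rose in epithelium and 0 fell at an adjusted p under 0.05 (limma, adjusted over all 12954 genes), where 18.7% of all genes tested were called higher and 44.9% lower. In plumes 59 of 65 were higher and 0 lower, where 30.2% of all genes were called higher and 47% lower. The median log2 fold change of the family was 0.42 in remiges, beside -0.35 for all genes, and 0.38 in plumes, beside -0.18. All 66 estimates lay above 0 in remiges and 64 of 65 in plumes. Of 65 genes tested in both, 52 were called in both, 5, with RPLP1, RPS24, RPL29 and RPL37A among them, in remiges and not plumes, 7 in plumes and not remiges, and 1, RPS23, in neither. Of 192 other genes averaging at least 500 TPM in remiges 41.7% were called higher, and of 196 such genes in plumes 51%.

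Both subunits contributed to the count. In remiges 37 of 41 large subunit genes were higher with a median of 0.43 and 20 of 25 small subunit genes with a median of 0.40. In plumes the counts were 37 of 40 with a median of 0.38 for the large subunit and 22 of 25 with a median of 0.38 for the small subunit. In 54 of 66 genes in remiges every epithelium library was above every pulp library, against 18.6% of all genes, and in plumes this held for 53 of 65, against 23.2% of all genes.

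The remige batches were also fitted 1 at a time. With the batch I remige libraries alone, where the lateral and medial library of a tissue are its 2 samples, 57 genes were called higher with a median of 0.41, 54 of them among the 57, and with the batch II libraries alone 51 with a median of 0.45, 49 of them among the 57. By the study's methods both sides of a batch were cut from the same pooled follicles, so these single-batch calls rest on the spread between pieces of 1 pool and not between birds. The share of all genes called in the single-batch fits was not counted, so their counts alone do not set the family apart. The labels of the batch I pulp libraries name no sequencing lane, while those of all other remige libraries name a common lane. Within batch I, tissue and sequencing run therefore cannot be told apart from these labels. In plumes the median was 0.38 in batch I and 0.37 in batch II. The number of calls depended on scaling. Quantile normalization gives every library the same distribution of values. Between 44 and 50 of the 100 most abundant genes of a group belonged to the family. This scaling can therefore also remove part of the family's common shift. Under quantile normalization 23 of 66 genes were called higher and 1 lower in remiges, where 5039 of all 13184 genes were higher and 3610 lower. In plumes 34 of 66 were called higher and 2 lower, where 6290 of all 13408 genes were higher and 4556 lower. The family median relative to that of all genes became -0.05 in remiges and 0.00 in plumes, against 0.77 and 0.56 as analysed here. With equal upper quartiles this relative median was 0.79 in remiges and 0.575 in plumes. With totals without the 50 highest genes it was 0.79 and 0.58, and with an equal median of the family 0.74 and 0.53. Depth was higher in epithelium as well, and its part in the result was not tested.

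**Figure D2:**
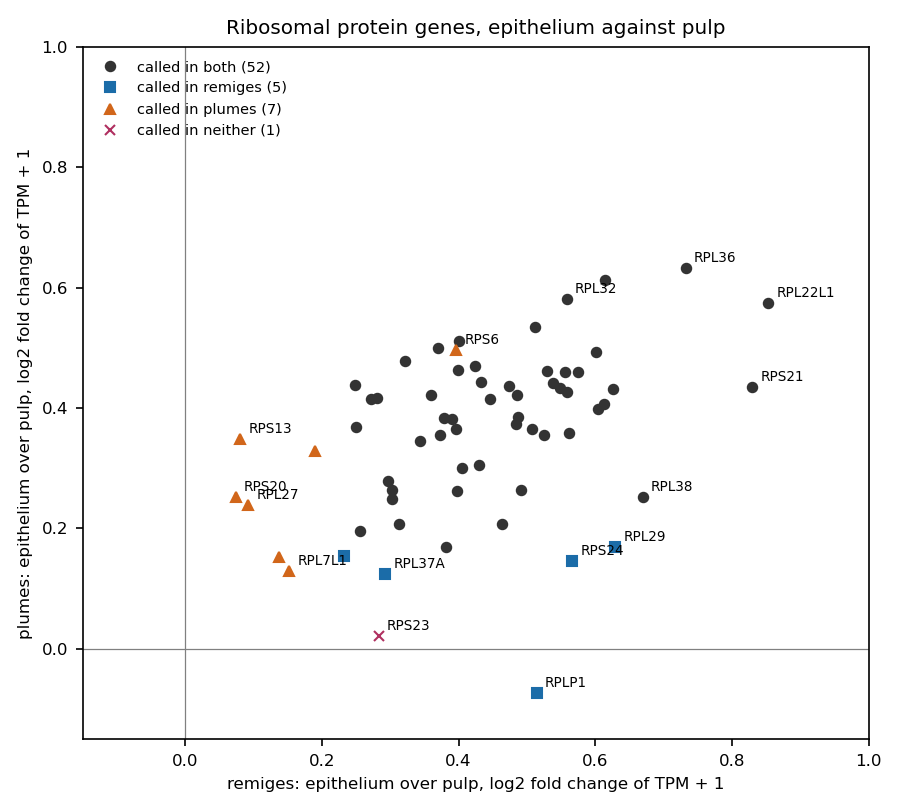
Log2 fold change of TPM + 1, epithelium over pulp, in remiges (x axis) and plumes (y axis) for the 65 genes tested in both; symbols show where a gene passed an adjusted p under 0.05. Nearly all points lie above 0 on both axes, RPL22L1 and RPS21 reach furthest in remiges, and RPLP1 lies below 0 in plumes only.

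The steepest change in remiges was that of RPL22L1, the paralogue of RPL22. RPL22L1 was at 1753 and 1261 TPM in lateral epithelium and 1663 and 1382 in medial epithelium, against 937 and 711 in lateral pulp and 905 and 789 in medial pulp. The groups did not overlap, and the log2 fold change was 0.85 (SE 0.15, adjusted p = 0.00224). In plumes RPL22L1 was at 734 and 779 TPM in dorsal epithelium and 857 and 799 in breast epithelium, against 552 and 486 in dorsal pulp and 533 and 555 in breast pulp, again without overlap (log2 fold change 0.57, SE 0.06, adjusted p = 2.59e-05). Its partner RPL22, which binds ribosomal and some viral RNAs, was at 2176 to 2405 TPM in remige epithelium and 1509 to 1811 TPM in remige pulp (log2 fold change 0.43, SE 0.07, adjusted p = 0.00217). In plumes RPL22 rose by 0.44 (SE 0.06, adjusted p = 0.000219). Set side by side, with no test across the tables, RPL22L1 stood at 1261 to 1753 TPM in remige epithelium and 734 to 857 TPM in plume epithelium. In plume epithelium RPL22 stood at 2055 to 2111 TPM.

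RPS21, a small subunit protein, had 1812 and 1463 TPM in lateral and 1467 and 1143 TPM in medial epithelium, against 761 and 799 TPM in lateral and 867 and 844 TPM in medial pulp. All 4 epithelium libraries were above the pulp libraries, with a log2 fold change of 0.83 (SE 0.11, adjusted p = 0.00061). RPL38, which mouse embryos need for translation of some Hox mRNAs, was at 4603 and 4308 TPM in lateral epithelium and 3933 and 3411 in medial epithelium, against 2434 and 2599 in lateral pulp and 2492 and 2635 in medial pulp (log2 fold change 0.67, SE 0.08, adjusted p = 0.000313). In plumes the estimates of both were smaller, 0.44 for RPS21 (adjusted p = 0.000357) and 0.25 for RPL38 (adjusted p = 0.0167, but -0.041 under quantile normalization); a difference between feather types was not tested, since the tables were fitted apart.

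The largest changes in plumes included those of the large subunit genes RPL36 and RPL32. RPL36 was at 2230 and 2554 TPM in dorsal epithelium and 2331 and 2320 in breast epithelium, against 1510 and 1458 in dorsal pulp and 1435 and 1688 in breast pulp (log2 fold change 0.63, SE 0.07, adjusted p = 4.07e-05). RPL36 rose by 0.73 in remiges (SE 0.08, adjusted p = 0.000184). RPL32 was at 2878 to 3418 TPM in plume epithelium and 1961 to 2236 TPM in plume pulp, with log2 fold changes of 0.58 in plumes (adjusted p = 4.08e-05) and 0.56 in remiges (adjusted p = 0.000903). For both genes every epithelium library was above every pulp library of the same feather type.

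Among the most abundant genes, RPS3A rose by 0.32 in remiges (adjusted p = 0.00554) and 0.48 in plumes (adjusted p = 8.96e-05). RPS24 rose by 0.57 in remiges (adjusted p = 0.00365) and had an estimate of 0.15 in plumes (adjusted p = 0.0939), where its levels were 5226 to 5584 TPM in epithelium and 4464 to 5583 TPM in pulp and overlapped. Among the scarcer genes RPS16 rose by 0.41 in remiges and 0.30 in plumes, and RPS28 by 0.46 and 0.21. RPL7 rose by 0.43 in remiges and 0.30 in plumes and RPL3, which lies near the site of peptide bond formation, by 0.28 and 0.42. Under quantile normalization the remige estimate of RPL3 was -0.078. Not every alternative kept the calls of RPS16, RPS28, RPL7 and RPL3. They were lost most often for RPL7 and RPL3 in remiges and for RPS28 in plumes. RPL7L1 passed in plumes with an estimate of 0.13 (adjusted p = 0.0471) and had 0.15 in remiges (adjusted p = 0.271, and 0.0168 with the replicate number as a block).

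A few genes had nearly the same level in both tissues of remiges. RPS20 was at 4048 and 3650 TPM in lateral epithelium and 4010 and 3851 in medial epithelium, against 3610 and 3546 in lateral pulp and 3686 and 3937 in medial pulp, a log2 difference of 0.07 (SE 0.07, adjusted p = 0.388). RPL27 had 0.09 (adjusted p = 0.391) and RPS13 0.08 (adjusted p = 0.671). All 3 were called higher in plume epithelium, with 0.25 for RPS20, 0.24 for RPL27 and 0.35 for RPS13. RPS13 was at 890 to 1331 TPM in remige epithelium and 918 to 1245 TPM in remige pulp, and at 1730 to 2108 TPM in plume epithelium and 1400 to 1589 TPM in plume pulp, values set side by side with no test. When libraries were scaled to an equal median of the family, so that only differences among its members remained, RPS20 (-0.31, adjusted p = 0.0101) and RPL27 (-0.30, adjusted p = 0.00943) were lower in remige epithelium than the rest of the family, and RPL22L1, RPS21, RPL36 and RPL38 were still called higher among 8 of 66 genes. With that scaling 1383 of all 13040 genes were called higher and 7845 lower, so the count of 8 does not set the family apart.

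RPS6 and RPS23, both placed on Z by RefSeq, followed the batches in remiges. RPS6 was at 6809 TPM in lateral and 7015 in medial epithelium of batch I, against 5682 in lateral and 5319 in medial pulp of batch I. In batch II RPS6 was at 3457 TPM in lateral and 4294 in medial epithelium, against 2661 in lateral and 2938 in medial pulp. Within each batch both epithelium libraries were above both pulp libraries, while across batches the tissues overlapped. RPS23, a protein of the decoding centre, was at 6337 and 6242 TPM in lateral and medial epithelium of batch I, against 5006 and 5446 in lateral and medial pulp of batch I. In batch II RPS23 was at 3354 and 3277 TPM in lateral and medial epithelium, against 2548 and 2853 in lateral and medial pulp.

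Neither gene passed in remiges, with log2 fold changes of 0.40 for RPS6 (SE 0.36, adjusted p = 0.373) and 0.28 for RPS23 (SE 0.37, adjusted p = 0.532). With the replicate number as a block the estimates kept their size and both passed, RPS6 at an adjusted p of 0.00313 and RPS23 at 0.00192. In plumes RPS6 rose by 0.50 (SE 0.06, adjusted p = 9.81e-05), and RPS23 had an estimate of 0.02 (SE 0.06, adjusted p = 0.77). The difference between batches, batch II minus batch I, was -1.09 to -0.71 for RPS6 and -0.97 to -0.92 for RPS23 over the 4 remige groups, where the other 63 genes with at least 25 TPM ran from -0.52 to 0.39. In plumes it was -0.10 to 0.17 for RPS6 and -0.03 to 0.18 for RPS23. RPL37, also placed on Z, differed by -0.33 to -0.20 between the remige batches. Genes placed on other chromosomes differed as much, with -0.51 to -0.22 for RPS13, -0.47 to -0.20 for RPL22L1 and 0.30 to 0.39 for RPS29. RPL17, placed on Z and near 0 TPM, ran from -0.17 in medial epithelium to 0.49 in lateral pulp. The part of sex in these differences was not tested.

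**Figure D3:**
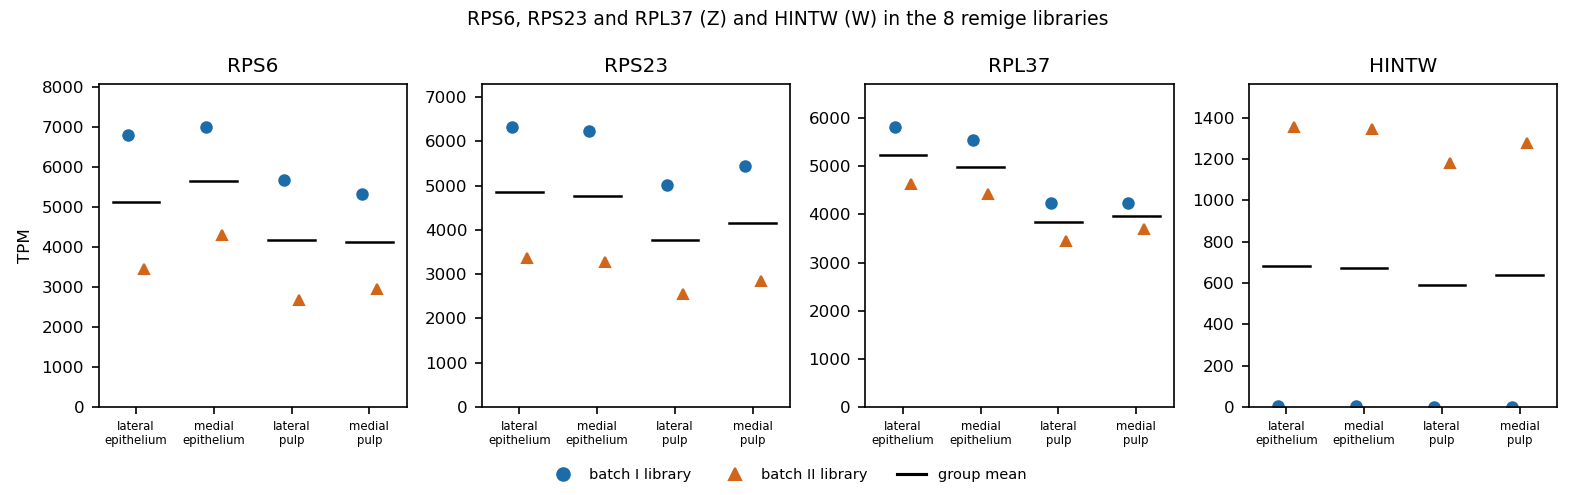
TPM (y axis, linear from 0, each panel with its own scale) of RPS6, RPS23, RPL37 and HINTW in the remige groups (x axis). Points are libraries of batch I and batch II and lines are means of 2 libraries. RPS6 and RPS23 were lower in every batch II library, HINTW was at 1179 to 1358 TPM in batch II and at most 3.05 TPM in batch I, and the batch gap of RPL37 was smaller.

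Between the lateral and medial sides of the remiges no gene of this family was called. Nearly none of all genes was called either, so the counts do not set the family apart. The main fit did not pair the sides by batch, although both were cut from the same pooled follicles. Their batch differences correlated over genes at 0.81 in epithelium and 0.73 in pulp. With the replicate block no gene of the family was called either, and the share of all genes called was not counted. In pulp 0 of 66 genes were called in either direction with limma, and 0 had an unadjusted p under 0.05, where 0% of all genes were called higher and 0% lower. The median log2 fold change, lateral over medial, was -0.04, beside -0.02 for all genes. In epithelium 0 of 66 were called, 1 had an unadjusted p under 0.05, and of all genes 0% were higher and 0.00772% lower. The family median was -0.03, the same as for all genes. In pulp both lateral libraries were below both medial ones in 12 of 66 genes and above in 0, against 1605 and 1194 of all 12954 genes. In epithelium they were below in 15 of 66 and above in 8, against 1968 and 1488 of all 12954. Within batches the pulp median was 0.03 in batch I and -0.12 in batch II, and the epithelium median 0.02 in batch I and -0.05 in batch II.

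In pulp the largest estimates in size were those of RPS26 and RPS29. RPS26 had 574 and 642 TPM on the lateral side, against 675 and 803 on the medial side, a log2 difference of -0.28 (SE 0.12, adjusted p = 1.0). RPS29, a zinc-binding small subunit protein, had 908 and 1155 TPM on the lateral side, against 1076 and 1405 on the medial side (-0.26, SE 0.21, adjusted p = 1.0). In both the lateral library was the lower one in each batch, and the groups overlapped for RPS29. In epithelium RPS21 had 1812 and 1463 TPM on the lateral side, against 1467 and 1143 on the medial side (0.33, SE 0.16, adjusted p = 1.0), and RPL17, near 0, had 1.73 and 1.64 TPM on the lateral side, against 2.70 and 2.30 on the medial side (-0.38, SE 0.25, adjusted p = 1.0). RPL38 was the gene with an unadjusted p under 0.05, with an estimate of 0.28 (SE 0.11, adjusted p = 1.0).

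The difference between the tissues in the lateral-over-medial contrast was called for 0 of 66 genes, with 1 at an unadjusted p under 0.05 and 0% of all genes called higher and 0% lower. The largest estimates were 0.49 for RPS29 (SE 0.30, adjusted p = 1.0) and 0.46 for RPS21 (SE 0.22, adjusted p = 1.0). RPS26 gave the unadjusted value under 0.05, with 0.44 (SE 0.17, adjusted p = 1.0).

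Between dorsal and breast plumes few genes of this family were called. In pulp 1 of 65 genes was higher in dorsal plumes and 0 lower, where 13% of all genes tested were called higher and 15.2% lower. The family median was -0.04, beside -0.06 for all genes, and the within-batch medians had opposite signs, 0.07 in batch I and -0.18 in batch II. The single gene was RPLP1. It encodes the acidic protein P1, which pairs with P2 on the stalk of the large subunit, where P0 anchors them and translation factors are recruited.

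RPLP1 was at 7426 and 7120 TPM in dorsal pulp, against 3934 and 4377 TPM in breast pulp. The dorsal libraries were above the breast libraries, and also above the plume epithelium, which had 5228 and 5782 TPM in dorsal and 4843 and 5064 in breast plumes. The log2 fold change in pulp was 0.81 (SE 0.09, adjusted p = 0.000392), while in epithelium it was 0.15 (SE 0.09, adjusted p = 0.317). It passed in all 19 other settings, including those that left out a library, at adjusted p between 3.89e-06 and 0.0134. The genes of its stalk partners were not called. RPLP0 was at 2509 and 2548 TPM in dorsal pulp, against 2334 and 2508 in breast pulp (0.06, SE 0.10, adjusted p = 0.673), and RPLP2 at 621 and 592 TPM in dorsal pulp, against 521 and 628 in breast pulp (0.08, SE 0.10, adjusted p = 0.563).

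RPLP1 was also the only one of 65 genes for which the dorsal-over-breast contrast differed between tissues, epithelium minus pulp, with -0.66 (SE 0.13, adjusted p = 0.00869) where 11.7% of all genes were called higher and 11% lower. Before adjustment 5 of the 65 were higher and 1 lower at p under 0.05. With equal upper quartiles (adjusted p = 0.0552), without breast epithelium replicate 2 (adjusted p = 0.0549) or without dorsal pulp replicate 1 (adjusted p = 0.0609) RPLP1 missed the threshold. With the replicate block RPS29 joined it in the other direction, with 0.42 (adjusted p = 0.0296). In remiges RPLP1 rose with most of the family. It was at 6782 to 7230 TPM in epithelium and 4618 to 5327 TPM in pulp (log2 fold change 0.51, SE 0.07, adjusted p = 0.00066), while in plumes the epithelium-over-pulp estimate was -0.07 (SE 0.07, adjusted p = 0.327), with dorsal pulp above and breast pulp below the epithelium.

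Some cell type markers were also called between dorsal and breast pulp, where 13% of all genes were called higher and 15.2% lower. Of 16 endothelial markers 9 were lower in dorsal pulp and 0 higher, with sums of 855 and 903 TPM in dorsal pulp, against 1507 and 1146 in breast pulp. Of 26 keratinocyte markers 10 were lower and 1 higher, with sums of 1636 and 2041 TPM in dorsal pulp, against 1645 and 2736 in breast pulp. Of 15 leukocyte markers 3 were lower and 0 higher, with sums of 1436 and 1523 TPM in dorsal pulp, against 2230 and 1904 in breast pulp. Of 11 tested erythrocyte markers 1 was higher and 2 lower, with sums of 1330 and 1502 TPM in dorsal pulp, against 2203 and 1944 in breast pulp. Of 21 tested fibroblast markers 5 were higher and 2 lower, with sums of 34818 and 33962 TPM in dorsal pulp, against 37099 and 31240 in breast pulp. The endothelial, leukocyte and erythrocyte sums did not overlap between the groups. No marker of these 5 lists was at 0 in either group. Their part in the RPLP1 result was not tested.

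**Figure D4:**
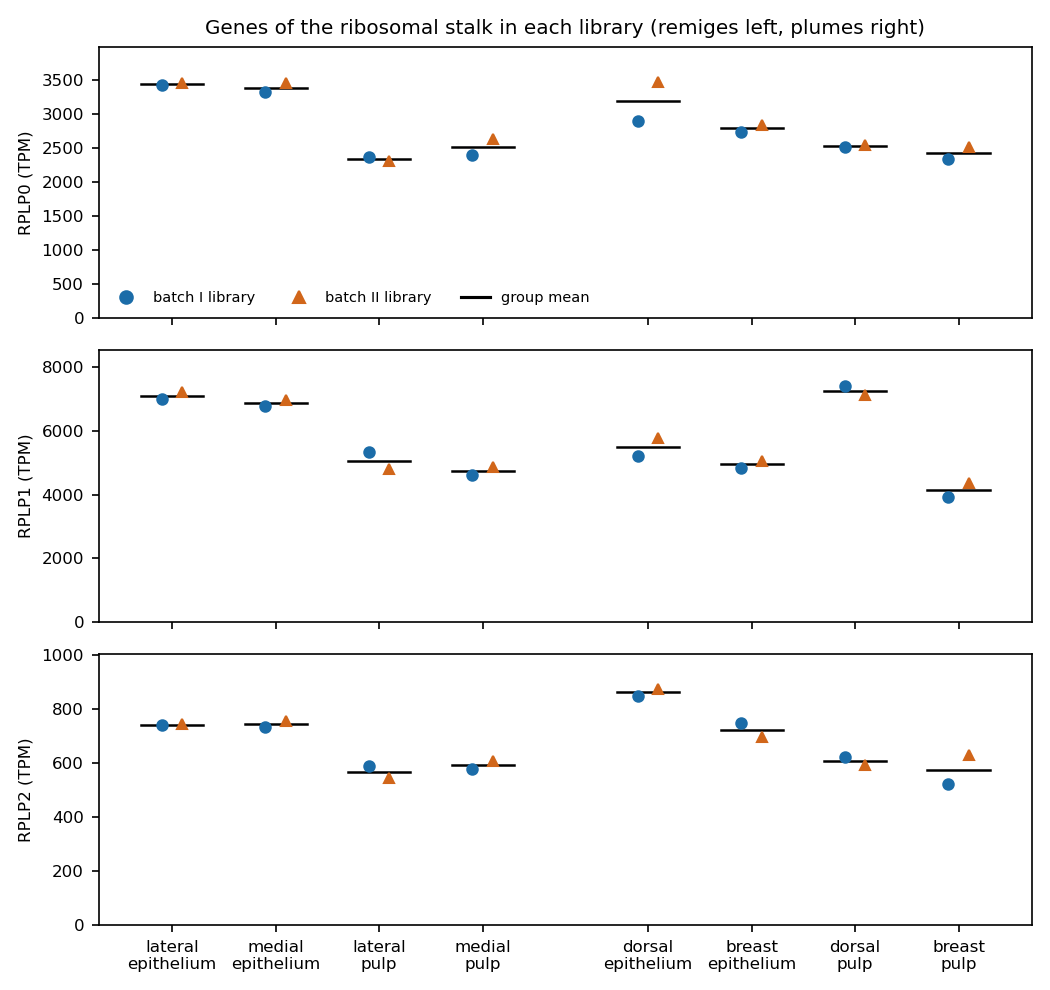
TPM (y axis, linear from 0) of RPLP0, RPLP1 and RPLP2, the genes of the ribosomal stalk, in the 8 groups (x axis, remiges left and plumes right). Points are libraries of batch I and batch II and lines are means of 2 libraries. RPLP1 stood at 7426 and 7120 TPM in dorsal pulp, against 3934 and 4377 TPM in breast pulp, while RPLP2 overlapped between these groups and both dorsal RPLP0 libraries lay just above the breast ones.

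In epithelium 2 of 65 genes were higher in dorsal plumes and 0 lower, where 8.55% of all genes tested were called higher and 9.1% lower. Before adjustment 10 were higher and 1 lower at p under 0.05 in limma. Every dorsal library was above every breast library in 44 of 65 genes, against 28.1% of all genes. In all 58 of 65 estimates lay above 0, and the family median was 0.11, beside 0.00 for all genes, with 0.05 in batch I and 0.18 in batch II. Under quantile normalization the median was 0.03 with 40 of 66 above 0, and leaving out 1 library gave 0.05 to 0.17. RPS29 was at 1824 and 1851 TPM in dorsal epithelium, against 1246 and 1435 in breast epithelium, a log2 fold change of 0.46 (SE 0.11, adjusted p = 0.0199). RPL34, a large subunit protein, was at 930 and 1226 TPM in dorsal epithelium, against 787 and 770 in breast epithelium (0.46, SE 0.13, adjusted p = 0.0431). In both genes the dorsal libraries were above the breast libraries.

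These calls lay near the threshold. With the replicate block 4 genes were called, among them RPS29 (adjusted p = 0.00746), RPL34 (0.0258) and RPS26 (0.0268). Both calls were lost with RPKM as deposited, with an equal median of the family, and when breast epithelium replicate 1, breast epithelium replicate 2, dorsal epithelium replicate 2, dorsal pulp replicate 1 or dorsal pulp replicate 2 was left out. The keratinocyte markers summed to 14209 and 15104 TPM in dorsal epithelium, against 11978 and 12260 in breast epithelium, with 4 of 26 higher and 0 lower, and their part in the shift was not tested.

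The rest of the translation apparatus was followed with lists of its own. RPSA and GNB2L1, 2 ribosomal proteins whose names do not follow the pattern, were both higher in epithelium. RPSA, the small subunit protein also known as the laminin receptor, rose by 0.51 in remiges (adjusted p = 0.00069) and 0.47 in plumes (adjusted p = 8.56e-05), and GNB2L1, the scaffold RACK1, by 0.47 and 0.48. Of 33 initiation factors 23 rose and 2 fell in remige epithelium, with a median of 0.56, and 25 rose and 2 fell in plume epithelium, with a median of 0.54. EIF2B5, a subunit of the exchange factor of eIF2, rose by 1.71 in remiges and 1.73 in plumes. Of 4 elongation factors 2 were higher in remige epithelium and 4 in plume epithelium, with EIF5A2 at 1.12 in remiges and 1.18 in plumes.

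Of 87 ribosome assembly factors 48 rose and 1 fell in remige epithelium, and 72 rose and 2 fell in plume epithelium, with medians of 0.43 in both. NPM3, a nucleoplasmin of the nucleolus, rose by 1.83 in remiges (adjusted p = 7.3e-06) and 2.28 in plumes (adjusted p = 2.9e-07), and RCL1, an rRNA processing factor, by 1.04 and 1.27. Of 21 cytosolic aminoacyl-tRNA synthetase genes 15 rose and 1 fell in remige epithelium, and 19 rose and 2 fell in plume epithelium. CARS, for cysteine, rose by 1.17 in remiges and SARS, for serine, by 1.67 in plumes. Of 15 genes of RNA polymerase I transcription, which makes ribosomal RNA, 4 were higher and 3 lower in remiges and 5 higher and 1 lower in plumes. These counts stand beside 18.7% higher and 44.9% lower among all genes in remiges, and 30.2% higher and 47% lower in plumes, and no list was tested against another.

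Mitochondrial ribosomal protein genes were called in both directions. Of 59 tested, 10 rose and 11 fell in remige epithelium, with a median of 0.06, and 16 rose and 12 fell in plume epithelium, with a median of 0.07. Of all genes 18.7% were called higher and 44.9% lower in remiges, with a median of -0.35, and 30.2% higher and 47% lower in plumes, with a median of -0.18, shares that also stand beside the next 2 lists. MRPS6 fell by 1.56 in remiges and MRPL13 by 0.67 in plumes. Of 23 genes of growth signalling to the ribosome, 6 were higher and 10 lower in remiges and 8 higher and 11 lower in plumes, among them LARP1B, a relative of the factor that binds the mRNA start of this family, which rose by 1.84 in remiges and 2.15 in plumes. Of 29 proliferation genes 0 rose and 18 fell in remige epithelium, with a median of -0.34, near that of all genes. In plume epithelium 1 rose and 20 fell, with a median of -0.43. MCM3, of the replicative helicase, fell by 0.92 in remiges and by 0.93 in plumes.

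**Figure D5:**
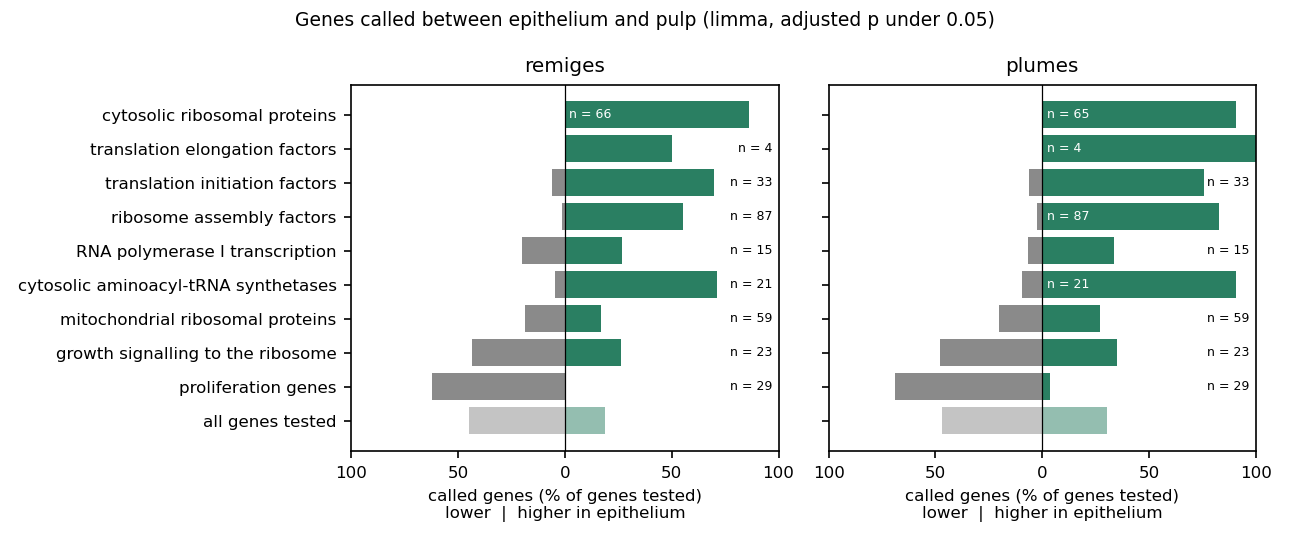
Share of tested genes called higher (right of 0) or lower (left of 0) in epithelium than in pulp, in percent (x axis), for gene lists of the translation apparatus, for proliferation genes and for all genes tested (y axis), in remiges and plumes; n is the number of genes tested. Cytosolic ribosomal protein genes had 57 of 66 and 59 of 65 higher and none lower, while mitochondrial ribosomal protein genes were called in both directions.

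In dorsal over breast epithelium 8.55% of all genes were called higher and 9.1% lower, with a median of 0.00. Beside the family's 2 higher and 0 lower, 0 of 87 assembly factors were higher and 21 lower, with a median of -0.26. Of 21 tRNA synthetase genes 0 were higher and 7 lower, with a median of -0.28, and of 59 mitochondrial ribosomal protein genes 2 were higher and 9 lower, with a median of -0.17. NVL, an assembly ATPase, fell by 0.64 (adjusted p = 0.0055) and TARS, the synthetase for threonine, by 0.54 (adjusted p = 0.00328). A difference between the lists was not tested. In dorsal over breast pulp the assembly factors had 1 higher and 8 lower, with a median of -0.15, and the family 1 higher and 0 lower, where 13% of all genes were called higher and 15.2% lower, with a median of -0.06.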

How the data were processed

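The authors mapped the reads to galGal4 and quantified them in Partek software, and the submitters' processing notes also name TopHat2; versions, annotation, strand and the handling of reads with several hits are not given in the sources used here. The deposited values are RPKM, in 1 table for 8 remige and 1 for 8 plume libraries; they are not counts, so counting error is unknown and precision rests on 2 libraries a group. Per the labels the replicate numbers are batches; the study calls them biological replicates, but whether they were separate birds is not stated, so p-values measure only the spread between these samples. RPKM was rescaled to TPM. A linear model with 4 group means per table (limma 3.58.1, moderated by eBayes with a trend, R 4.3.3; 4 residual degrees of freedom) was fitted to log2(TPM + 1), which understates changes of low genes. A gene entered if 1 group averaged at least 1 TPM, which left 12954 remige and 13246 plume genes. Adjustment was by Benjamini-Hochberg over all genes, called at 0.05. The code was tested on simulated data. Symbols were matched to RefSeq (GRCg7b): 64 of the 67 by symbol and 3 (RPL26, RPL39, RPS4) by synonym; no coordinates were used.

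The numbers pair the samples by the labels. The batch differences of 2 groups correlated over genes at 0.45 to 0.81 in remiges and 0.00 to 0.12 in plumes. The fit without a block was the main one. It treats the lateral and medial remige pieces of a batch as independent samples. The genes, lists, rule and alternatives were chosen with earlier results of these data known. By rule, the named genes were the 5 highest and 5 lowest, the 4 largest called changes per comparison and direction with at least 25 TPM (or the 2 largest in size where none was called), paralogues with their core genes, and genes below 1 TPM; RPS20, RPL27, RPS13, RPL29, RPL37A, RPL39, RPS10, RPS23, RPL37, RPL38 between remige sides, RPS26 between tissues, RPLP0 and RPLP2 were chosen after their values were seen. Some genes that the rule names are counted but not reported one by one here. Figures used Python 3.11.15 and matplotlib 3.10.9.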

Additional observations from a re-analysis of the deposited data

Results flagged for a closer look

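RPLP1 was flagged because its dorsal-over-breast contrast differed between epithelium and pulp by a test of the difference itself, -0.66 on the log2 scale (SE 0.13, adjusted p = 0.00869 in limma). RPLP1 was at 5228 and 5782 TPM in dorsal epithelium, against 4843 and 5064 in breast epithelium, and at 7426 and 7120 TPM in dorsal pulp, against 3934 and 4377 in breast pulp. Over 18 alternatives the difference ran from -0.96 to -0.58 and passed in 15, at adjusted p between 0.000172 and 0.0609. Groups of 2 libraries are too small to look for single libraries far from the others.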

How the results depend on the processing

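The epithelium-over-pulp medians stayed above 0 under the alternatives run other than an equal median of the family, which sets them near 0 (0.04 in remiges and 0.0025 in plumes) and says nothing of direction. Their size and the number of calls depended on scaling, and relative to all genes the remige median was -0.05 under quantile normalization. Relative to all genes it was 0.79 with equal upper quartiles, 0.79 with totals without the 50 highest genes and 0.74 with an equal median of the family. In remiges the family median, 0.42 as analysed, was 0.51 with RPKM as deposited, 0.77 with equal upper quartiles, 0.58 with totals without the 50 highest genes and 0.15 with quantile normalization. In plumes the median, 0.38 as analysed, was 0.37 with RPKM as deposited, 0.54 with equal upper quartiles, 0.44 with totals without the 50 highest genes, 0.37 with no filter and 0.18 with quantile normalization. Quantile normalization gave 23 genes higher and 1 lower in remiges, 34 higher and 2 lower in plumes, and 1 lower in dorsal over breast pulp. Of all genes, 5039 of 13184 were then higher and 3610 lower in remiges, and 6290 of 13408 higher and 4556 lower in plumes. In dorsal over breast pulp 2048 of all 13408 were higher and 2074 lower. An equal median of the family removes its common shift by construction, and left 8 higher and 2 lower in remiges, 6 higher and 15 lower in plumes, 2 higher in dorsal over breast pulp and 0 in epithelium. Of all genes, 1383 of 13040 were then higher and 7845 lower in remiges, and 2195 of 13332 higher and 8076 lower in plumes. In dorsal over breast plumes 1461 of all 13332 were higher and 1257 lower in pulp, and 464 higher and 974 lower in epithelium. For the other moves the cause was not tested.

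The 2 calls higher in dorsal over breast epithelium became 0 with RPKM as deposited and 1 with equal upper quartiles, with no filter or with a pseudocount of 0.1 TPM. The RPLP1 call between tissues became 0 with equal upper quartiles. With the replicate block, that is with pairing by batch, dorsal over breast epithelium had 4 higher and the difference between tissues 1 higher, and epithelium over pulp had 62 higher in remiges and 59 in plumes. In epithelium over pulp the block added RPS6, RPS23, RPL7L1, RPS10 and RPL39 in remiges, and in plumes 1 gene was added and RPL39 lost its call; it changed no other call of the family beyond these and those in dorsal over breast.

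Among named genes, an equal median of the family turned epithelium over pulp to -0.11 for RPL3 and -0.067 for RPS3A in remiges, and to -0.024 for RPL34, -0.13 for RPL38, -0.075 for RPL7, -0.25 for RPL7L1, -0.079 for RPS16 and -0.17 for RPS28 in plumes. Quantile normalization turned it to -0.078 for RPL3 in remiges and to -0.041 for RPL38 in plumes. Of the other values of named genes under alternatives that kept all libraries or a batch, 347 stayed on their side of the threshold and 37 lost their call.

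Leaving out 1 library gave medians of 0.39 to 0.46 in remiges and 0.34 to 0.42 in plumes for epithelium over pulp, with 47 to 55 and 52 to 61 genes higher, and -0.072 to 0.087 for the difference between tissues of lateral over medial. It gave medians of 0.05 to 0.17 in dorsal over breast epithelium, -0.12 to 0.04 in dorsal over breast pulp, where the sign changed, and 0.07 to 0.27 for their difference, and in lateral over medial -0.05 to 0.01 in epithelium and -0.11 to 0.03 in pulp, where the sign also changed. It gave 0 to 2 genes higher in dorsal over breast epithelium, 0 to 1 lower in pulp, and 0 to 1 higher and 0 to 1 lower in their difference. Without genes placed on Z and W 56 genes were higher in remiges and 58 in plumes, a setting chosen after seeing the data, as were the fits on 1 remige batch. The share of all genes called was not counted in these settings, with the replicate block or without 1 library. A fit on only the groups compared could not be set against epithelium over pulp, which uses all 4 groups of a table. With 2 libraries a group, no counts and no block, the main fit could miss differences smaller than the spread between libraries. RPS6 and RPS23 in remiges, for example, passed with the replicate block and not in the main fit.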
